A study of Mus musculus with 22 samples.

Results

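The ABC, OATP and organic ion transporters of the liver were examined as 81 genes, namely every gene whose symbol starts with Abca to Abcg, Slco or Slc22a followed by a digit and for which the array carried a probe set annotated to that gene alone. They comprised 45 ABC genes, 15 Slco genes and 21 Slc22a genes, read by 152 probe sets, out of 18194 genes with a probe set of 1 symbol. Livers came from 22 male C57BL6 mice, 8 weeks old. The animals received diclofenac sodium, a non-steroidal anti-inflammatory drug, at 30 mg/kg by daily intraperitoneal injection, or saline in corresponding volume. Livers were taken at day 1 (24 hours), day 3 (72 hours) or day 14. For each of diclofenac and saline, 3 livers were profiled at the first time point, 3 at the second and 5 at the last. The labels speak of 5 mice in each group, whereas the day 1 and day 3 groups held 3 arrays each.

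ABC proteins use ATP to pump substrates across membranes. In the hepatocyte, pumps on the canalicular membrane secrete bile salts, phospholipid, sterols and drug conjugates into bile, and pumps on the sinusoidal membrane return conjugates and cholesterol to blood. The organic anion transporting polypeptides (Slco genes) and the organic ion carriers (Slc22a genes) need no ATP and mostly take bile salts, hormones, drugs and carnitine up from sinusoidal blood. Diclofenac and its glucuronide are carried by members of these families.

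One array was run per liver, and the value of a gene is the deposited signal intensity of its probe set with the highest mean. Levels of single genes were compared between livers for the same gene only, since intensities of different probe sets share no scale. The marker sums below add the signals of several probe sets, so the brightest ones weigh most in them. Of the 81 genes, 38 were above the array's own median signal on all 22 arrays, 28 on some of them and 15 on none (Abca4, Abca12, Abca13, Abca16, Slc22a14, Slc22a19, Slc22a21, Slco1a5, Slco1a6, Slco1c1, Slco4c1, Slco5a1, Slco6b1, Slco6c1 and Slco6d1). A gene was tested when it exceeded the median on at least 3 arrays of the comparison, which 60 genes did at days 1 and 3 and 53 at day 14. The 60 were 40 ABC, 7 Slco and 13 Slc22a genes, so that 8 of 15 Slco genes fell below the filter.

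The arrays of 2 diclofenac livers stood apart from the rest of their groups. At day 14, replicate 3 had a mean correlation of 0.892 with the other diclofenac livers of that day, against 0.952 to 0.955 for the other 4. It was the lowest of the 10 day 14 livers in 20 of 53 tested transporter genes (37.7%) and in 29.7% of all genes tested. It was also the highest in 15.1% of these transporter genes and in 27.9% of all genes. At day 1 the gap in correlation was smaller, with 0.947 for replicate 2, against 0.958 and 0.96 for the other diclofenac livers. Replicate 2 was the lowest of 6 livers in 23 of 60 transporter genes (38.3%) and in 29% of all genes. That liver was also the highest in 30% of these transporter genes and in 27.6% of all genes. The summed signal of the neutrophil marker genes, 6 of 7 measured and 5 past the filter, was 23461 in the day 14 replicate 3 liver, with a median of 1638 over the 5 diclofenac livers and a range of 282 to 466 over the saline livers. In the day 1 replicate 2 liver it was 21105, against 579 to 902 in saline livers. At day 3 the diclofenac livers ranged from 1758 to 2843 and the saline livers from 378 to 521. Camp was below the array median on all day 1 and day 3 arrays, and no neutrophil marker passed the adjusted test at any day. The 7 hepatocyte markers summed to 282860 to 328354 in diclofenac and 284835 to 309256 in saline livers at day 1, to 321339 to 349914 in diclofenac and 284608 to 319741 in saline livers at day 3, and to 465275 to 626828 in diclofenac and 401741 to 542114 in saline livers at day 14. The groups did not overlap at day 3, where 6 of the 7 markers had positive differences, none past the test, and none was below the median throughout. The 6 stellate cell and fibroblast markers, all measured and tested, summed to 7989 to 9603 in diclofenac and 11681 to 14343 in saline livers at day 1, without overlap, with 5 of 6 below saline, a median log2 difference of -0.54 and none past the test. Their sums overlapped at day 3 (9228 to 12342 in diclofenac and 9455 to 11399 in saline livers) and day 14 (4369 to 13012 in diclofenac and 8183 to 10873 in saline livers). All 7 Kupffer cell and macrophage markers had positive differences at each day, none past the test, with sums of 19668 to 26458 in diclofenac and 12324 to 18294 in saline livers at day 1, 18098 to 26372 in diclofenac and 15692 to 17349 in saline livers at day 3, and 5715 to 24364 in diclofenac and 3144 to 8572 in saline livers at day 14, where replicate 3 of the diclofenac livers was the highest. The part of other cell types in the transporter values was not tested, and in whole liver fewer cells of a type and less RNA per cell cannot be told apart. The main results that rest on these livers are also given without them.

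No transporter gene passed the limma test at an adjusted p of 0.05 at any single day. At day 1, 0 of 60 members passed, with 0% of all genes called. At an unadjusted p of 0.05, 4 members lay higher and 9 lower in diclofenac livers, 13 of 60 (21.7%), where 13% of all 12884 genes tested lay. With 1 liver left out this count ranged from 4 (without replicate 2 of either treatment) to 20 (without diclofenac replicate 3). For fits with a liver left out, here and below, no share of all genes under that p is given. These ranges are therefore not a result about transporters alone. At day 3, 0 of 60 passed the adjusted test, with 0.202% of all genes called, and 6 of 60 (1 higher, 5 lower) had an unadjusted p under 0.05, against 10.8% of all genes. This count was 3 without the day 3 diclofenac replicate 1 and 13 without the day 1 diclofenac replicate 2. At day 14, 0 of 53 passed, with 0% of all genes called, and 4 of 53 (2 higher, 2 lower) had an unadjusted p under 0.05, against 10.8% of all genes, or 7 of 52 without diclofenac replicate 3. The smallest adjusted p was 0.267 (Slc22a5) at day 1, 0.139 (Abca8b) at day 3 and 0.106 (Slc22a5) at day 14. The median log2 difference over the members was 0.02 at day 1, -0.06 at day 3 and -0.13 at day 14, beside medians of 0.001, 0.009 and -0.014 over all genes tested.

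Livers of the 2 treatments did not overlap in 6 members that were higher after diclofenac at day 1 (Abca1, Abcc4, Abcd4, Abcf3, Slc22a15 and Slc22a5) and in 9 that were lower (Abca8a, Abcb6, Abcc8, Abcc10, Abcg8, Slc22a17, Slc22a30, Slco1a1 and Slco1b2), of 60. Of all genes tested, 8.23% were higher without overlap and 8.1% lower. At day 3, 5 members were higher (Abca1, Abca3, Abcf1, Abcg3 and Slc22a23) and 7 lower (Abca8a, Abca8b, Abcb4, Abcc2, Abcc6, Slc22a30 and Slco1a1), beside 10.8% and 9.21% of all genes. At day 14 no member was higher and 2 were lower (Abcd3 and Slc22a5), of 53, beside 2.18% and 1.6% of all genes. Abca1 was above, and Slco1a1, Abca8a and Slc22a30 were below, without overlap on both early days. The share of all genes that separated on both days was not counted, so these members are not set against it.

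The first group by role were the sinusoidal uptake carriers, which bring bile salts, hormones and drugs from blood into the hepatocyte. The 5 genes analysed here were Slco1a1, Slco1a4, Slco1b2, Slco2b1 and Slc22a7. At day 1, 4 of the 5 were below saline and 1 above, with a median log2 difference of -0.50, and all 4 that were below had an unadjusted p under 0.05. The median was -0.08 at day 3 (4 below, 1 above, none with an unadjusted p under 0.05) and -0.13 at day 14 (3 below, 2 above, none). None of the 5 passed the adjusted test. Without replicate 2 of the day 1 diclofenac livers, the day 1 median was -0.16, and of the 5 genes Slco1a4 had an unadjusted p under 0.05 (0.0313).

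The genes Slco1a1, Slco1a4 and Slco1b2 of this list lie in the same stretch of chromosome 6, and the bases before their start sites are shown because the genes lay below saline together at day 1. The sequences are RefSeq's, of build GRCm38.p6, 5′ to 3′ on the gene's strand, and run up to the first base of the gene's annotated span. Capitals mark a match to the STAT motif, the only one of 4 searched motifs found in these stretches.
Slco1a1, minus strand, chr6:141946963-141947212: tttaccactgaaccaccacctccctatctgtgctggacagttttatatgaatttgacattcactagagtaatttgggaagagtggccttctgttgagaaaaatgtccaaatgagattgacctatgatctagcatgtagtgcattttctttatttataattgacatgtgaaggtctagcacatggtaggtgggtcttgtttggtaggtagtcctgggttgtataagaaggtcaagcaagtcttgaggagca
Slco1a4, minus strand, chr6:141856285-141856470: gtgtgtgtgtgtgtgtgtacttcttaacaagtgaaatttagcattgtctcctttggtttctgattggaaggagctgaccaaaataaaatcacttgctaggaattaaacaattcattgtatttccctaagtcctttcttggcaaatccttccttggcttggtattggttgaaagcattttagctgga
Slco1b2, plus strand, chr6:141629268-141629451: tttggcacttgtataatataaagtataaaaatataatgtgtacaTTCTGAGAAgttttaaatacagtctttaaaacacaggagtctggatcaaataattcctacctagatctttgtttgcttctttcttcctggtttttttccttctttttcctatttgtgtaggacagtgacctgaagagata

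Both strands of each gene's RefSeq window, from 250 bases before the start to 50 after it, were searched for 4 motifs. GTCANTGAC, the inner part of the bile acid receptor element IR-1, was in none of 79 windows of 67 members and in 0.387% of all 32851 windows. TGACNNNGC, the antioxidant response core, was in 13.9% of member windows and 12.4% of all windows. GTTAATNAT, part of the HNF1 site, was in 2.53% and 0.801%, and TTCNNNGAA, the STAT motif, in 12.7% and 8.3%. The first 2 motifs share the letters TGAC and can overlap. Slco1b2 held the HNF1 letters at bases -66 to -58 from its start and the STAT letters at -206 to -198. Slco1a1 and Slco1a4 held none of the 4 in their windows. A match is a run of letters and not a bound site.

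Slco1a1 encodes Oatp1a1, a male-predominant carrier of bile salts, steroid conjugates and drugs. Its signal was 9444, 1966 and 7610 in the day 1 diclofenac livers, against 11299, 11608 and 11782 in saline livers. At day 3 it was 8368, 4808 and 13106 in diclofenac and 13523, 14321 and 15244 in saline livers. Every early diclofenac liver was below all saline livers of its day, and the diclofenac values spread far more than the saline ones.

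At day 14 Slco1a1 was 4504, 5079, 478, 5512 and 6861 in diclofenac livers, against 6884, 7241, 5810, 10514 and 6408 in saline livers. The groups overlapped there, and the lowest value belonged to replicate 3. The log2 difference was -1.15 (SE 0.47, limma adjusted p = 0.343) at day 1, -0.83 (SE 0.47, adjusted p = 0.543) at day 3 and -1.11 (SE 0.61, adjusted p = 0.527) at day 14. The two-sided exact permutation p was 0.1 at days 1 and 3, the smallest that 3 against 3 allow, and 0.0317 at day 14, where the smallest for 5 against 5 is 0.0079. Without diclofenac replicate 2 of its day, the day 1 difference was -0.45 and the day 3 difference also -0.45, and without diclofenac replicate 3 the day 14 difference was -0.41. The gene's second probe set gave -1.01, -0.96 and -0.97 for the 3 days.

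Slco1a4, or Oatp1a4, takes up bile salts and cardiac glycosides. Its signal at day 1 was 886, 1311 and 1700 in diclofenac livers, against 1544, 2609 and 2105 in saline livers. At day 3 it was 1668, 2930 and 1698 in diclofenac and 3380, 3142 and 2429 in saline livers. At day 14 it was 2322, 3981, 688, 5948 and 2508 in diclofenac and 6050, 3746, 5855, 4445 and 4739 in saline livers. The groups overlapped at every day, with the diclofenac mean the lower one each time. The log2 difference was -0.70 (SE 0.27, adjusted p = 0.336), -0.55 (SE 0.27, adjusted p = 0.489) and -0.98 (SE 0.46, adjusted p = 0.476) for days 1, 3 and 14. It was -0.73 at day 1 without diclofenac replicate 2, -0.45 at day 1 without diclofenac replicate 1, and -0.51 at day 14 without replicate 3.

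Slco1b2, the liver's Oatp1b2, carries bile salts and unconjugated bilirubin. At day 1 it read 24850, 20657 and 24388 in diclofenac livers, against 25365, 27173 and 28394 in saline livers. The ranges did not overlap, and the log2 difference was -0.21 (SE 0.09, adjusted p = 0.351), or -0.13 without diclofenac replicate 2. It was -0.07 at day 3 and 0.00 at day 14, where diclofenac livers ranged from 14476 to 29503 and saline livers from 20609 to 27942. The 5 probe sets of the gene disagreed in size: at day 1 they ranged from -1.47 to -0.21 and at day 3 from -1.62 to -0.07, the most negative coming from probe sets above the median on 4 and 8 of 22 arrays. Besides the one used, the probe sets above the median on all 22 arrays gave -0.56 and -0.31 at day 1. At day 3 they gave -0.45 and -0.07.

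Slco2b1, a carrier of steroid sulphates, was 4553, 2454 and 5361 in day 1 diclofenac livers and 5202, 5535 and 5882 in saline livers. The log2 difference was -0.50 (SE 0.21, adjusted p = 0.356), and -0.16 without replicate 2. At day 14 the 4 diclofenac livers other than replicate 3 read 4644 to 4767, inside the saline range of 4637 to 4923, and replicate 3 read 3282. Slc22a7, or Oat2, which carries small organic anions and nucleobases, was the list's exception. Its log2 differences were 0.16, 0.33 and 0.25 for days 1, 3 and 14, with SEs of 0.27, 0.27 and 0.57. At day 14 its signal in diclofenac livers was 971, 806, 118, 527 and 791, against 685, 754, 230, 595 and 225 in saline livers, so the replicate 3 liver was again the lowest, and without it the difference was 0.79. At day 3 the difference was 0.11 without diclofenac replicate 3 and 0.63 without diclofenac replicate 2.

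**Figure D1:**
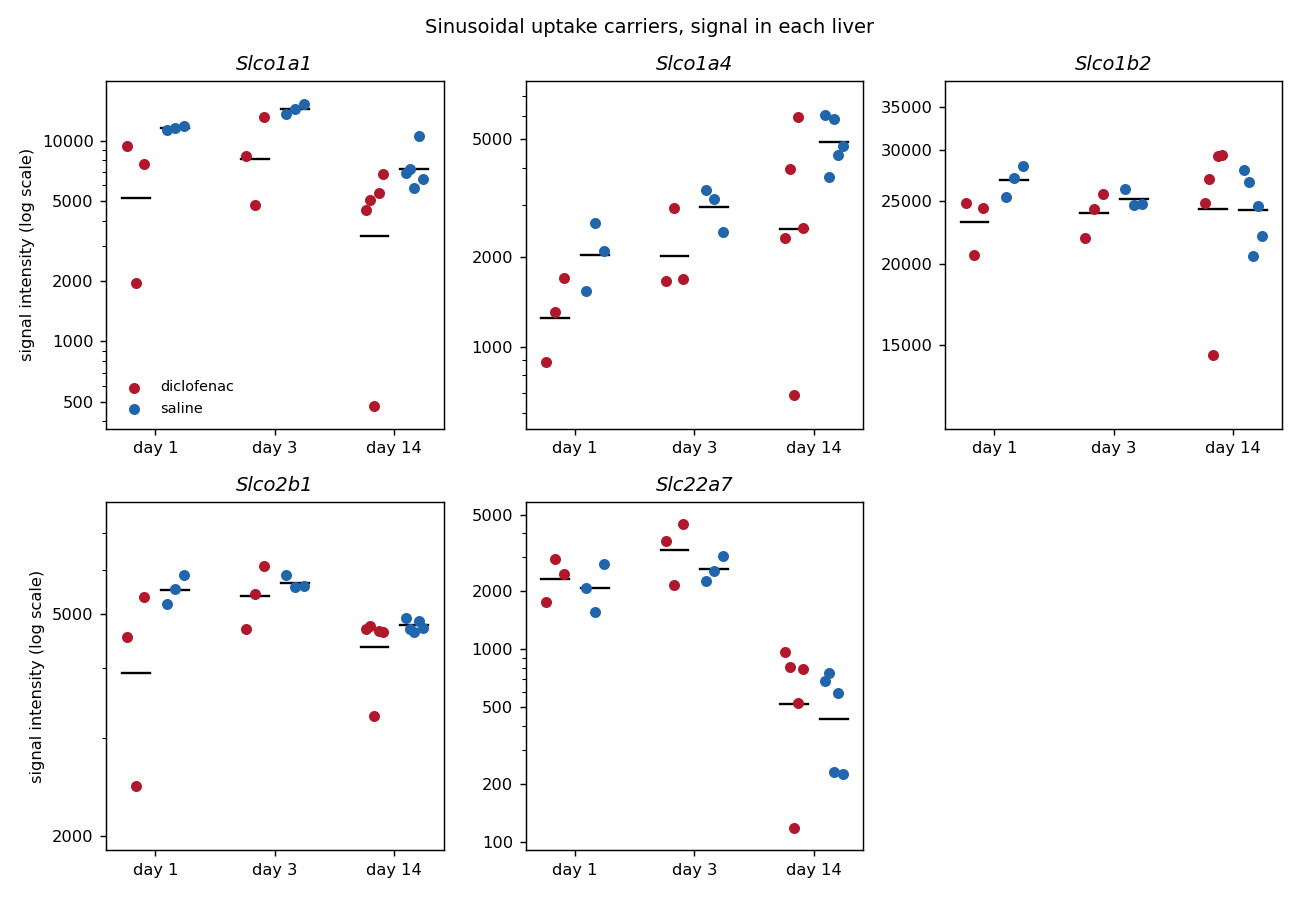
Signal intensity (log scale) of 5 sinusoidal uptake carriers in each diclofenac and saline liver at days 1, 3 and 14. Points are livers and bars geometric means. Slco1a1 in every diclofenac liver of days 1 and 3 lies below the saline livers of its day, and 1 diclofenac liver of day 14 lies far below the others (478).

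The canalicular efflux pumps formed the second group of 8 genes, all measured. At day 1, 3 were above and 5 below saline, with a median log2 difference of -0.18. At day 3 the split was 3 above and 5 below, with a median of -0.09. At day 14 all 7 tested genes were below, with a median of -0.23 and no unadjusted p under 0.05. Over the 3 days only Abcc2 at day 3 had an unadjusted p under 0.05, and none passed the adjusted test. Without replicate 3 the day 14 median was -0.17, and without replicate 2 the day 1 median was -0.03.

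Abcb11, the bile salt export pump, was 11565, 6700 and 10249 in day 1 diclofenac livers, against 10944, 12328 and 11159 in saline livers. At day 14 it was 9595, 6131, 1546, 8206 and 10194 in diclofenac and 4790, 7984, 6235, 6581 and 7306 in saline livers. Of the 5 diclofenac livers 3 were above every saline liver and replicate 3 was below them all. The log2 difference was -0.31 (SE 0.18), 0.16 (SE 0.18) and -0.12 (SE 0.44) for days 1, 3 and 14. It was -0.07 at day 1 without diclofenac replicate 2, and 0.37 (adjusted p = 0.367) at day 14 without replicate 3, so that its direction at day 14 rested on that liver.

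Abcb4, the phospholipid floppase that supplies bile with phosphatidylcholine, was 6738, 7557 and 6842 in day 3 diclofenac livers, against 7942, 8390 and 8390 in saline livers. These ranges did not overlap, with a log2 difference of -0.23 (SE 0.12, adjusted p = 0.509). At day 14 it was 11320, 11289, 2662, 9255 and 12665 in diclofenac and 11146, 13423, 12094, 13975 and 13470 in saline livers, a difference of -0.62 (SE 0.36, adjusted p = 0.549), or -0.21 without replicate 3.

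Abcc2, or Mrp2, secretes glucuronides and glutathione conjugates into bile. It was 4166, 4947 and 4949 in day 3 diclofenac livers and 5893, 6613 and 5605 in saline livers. The ranges lay apart, with a log2 difference of -0.37 (SE 0.10, unadjusted p = 0.0031, adjusted p = 0.194). At day 1 the difference was 0.01 (SE 0.10), with 5311 to 5996 in diclofenac and 5155 to 5926 in saline livers, and at day 14 it was -0.23 (SE 0.17), or -0.10 without replicate 3. Its RefSeq window held the antioxidant response core letters, in capitals below, at bases -98 to -90 from the start.
Abcc2, plus strand, chr19:43782058-43782307: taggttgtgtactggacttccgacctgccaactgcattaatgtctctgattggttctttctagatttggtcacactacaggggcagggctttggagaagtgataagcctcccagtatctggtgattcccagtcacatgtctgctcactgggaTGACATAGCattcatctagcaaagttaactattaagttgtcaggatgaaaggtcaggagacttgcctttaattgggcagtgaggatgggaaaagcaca

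Abcg5 and Abcg8 pair into the sterol pump of the canalicular membrane. Abcg8 was 1798, 1111 and 1845 in day 1 diclofenac livers, against 1857, 2049 and 1892 in saline livers, without overlap. Its log2 differences were -0.32 (SE 0.19, adjusted p = 0.487), -0.28 (SE 0.19) and -0.42 (SE 0.25) for days 1, 3 and 14, and those of Abcg5 were -0.17 (SE 0.21), -0.07 (SE 0.21) and -0.27 (SE 0.17). Without the liver that stood apart, Abcg8 was -0.08 at day 1 and -0.18 at day 14, and Abcg5 was 0.04 at day 1. Abcg8 at day 3 was -0.15 without diclofenac replicate 1. Abcg2, the breast cancer resistance protein that exports drug sulphates, gave 0.08, -0.11 and -0.20, with SEs of 0.15, 0.15 and 0.13. For the multidrug pumps Abcb1a and Abcb1b, signals were close to the array medians: Abcb1a read 78.9 to 134 in diclofenac and 83.7 to 110 in saline livers at day 14, and Abcb1b did not pass the filter there. Abcb1b at day 3 had a log2 difference of 2.07 with an SE of 1.32, where the diclofenac livers read 73.5 to 111 and the saline livers 1.5, 97.5 and 75.9. It was 0.12 without saline replicate 1, the liver at 1.5, and 3.13 without saline replicate 2.

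The third group, 6 sinusoidal efflux pumps, had 4 genes above and 2 below saline at day 1 (median log2 difference 0.14), 3 and 3 at day 3 (0.07) and 2 and 4 at day 14 (-0.14), with none past the adjusted test. The day 1 median was -0.04 without diclofenac replicate 1. Abca1 moves cholesterol to apolipoprotein A-I. It was 8652, 16907 and 7921 in day 1 diclofenac livers, against 7424, 7016 and 7877 in saline livers. At day 3 it was 11250, 7947 and 7653 in diclofenac and 6408, 5877 and 6464 in saline livers. All early diclofenac livers lay above the saline livers of their day, by a narrow margin at day 1.

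At day 14 Abca1 was 10604, 10841, 37986, 12425 and 9411 in diclofenac livers, against 9690, 8686, 10883, 8148 and 8835 in saline livers. The replicate 3 liver, the lowest for several uptake carriers, was the highest here. The log2 difference was 0.50 (SE 0.23, adjusted p = 0.381), 0.50 (SE 0.23, adjusted p = 0.459) and 0.59 (SE 0.32, adjusted p = 0.527) for days 1, 3 and 14. It was 0.16 at day 1 without replicate 2, 0.32 at day 3 without diclofenac replicate 1, and 0.23 at day 14 without replicate 3. Of the 2 other probe sets, 1 gave 0.10, -0.12 and 0.53 for the 3 days and 1 gave 0.42, 1.07 and 0.83.

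Abcc3, or Mrp3, exports glucuronides to blood. Its log2 differences at days 1, 3 and 14 were -0.28 (SE 0.18), -0.30 (SE 0.18) and -0.31 (SE 0.15, adjusted p = 0.482), and its livers overlapped at each. At day 1 the difference was -0.10 without diclofenac replicate 2 and -0.45 without diclofenac replicate 3, and at day 3 it was -0.46 without diclofenac replicate 2. At day 14 it read 5143, 5409, 3658, 6322 and 5695 in diclofenac livers and 6555, 6647, 6257, 7567 and 5288 in saline livers, and the difference was -0.19 without replicate 3. Abcc4, or Mrp4, exports bile salts with glutathione and cyclic nucleotides. It read 264, 271 and 215 in day 1 diclofenac livers, against 204, 199 and 173 in saline livers, without overlap (log2 difference 0.38, SE 0.25, adjusted p = 0.535), and -0.16 (SE 0.28) was its difference at day 14. Abcc6, the pump mutated in pseudoxanthoma elasticum, was 1525, 1805 and 1810 in day 3 diclofenac and 2208, 2580 and 1940 in saline livers, with a difference of -0.38 (SE 0.17, adjusted p = 0.443). Abcc1 and Abcc5 had differences between -0.13 and 0.40 with SEs of 0.14 to 0.37.

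**Figure D2:**
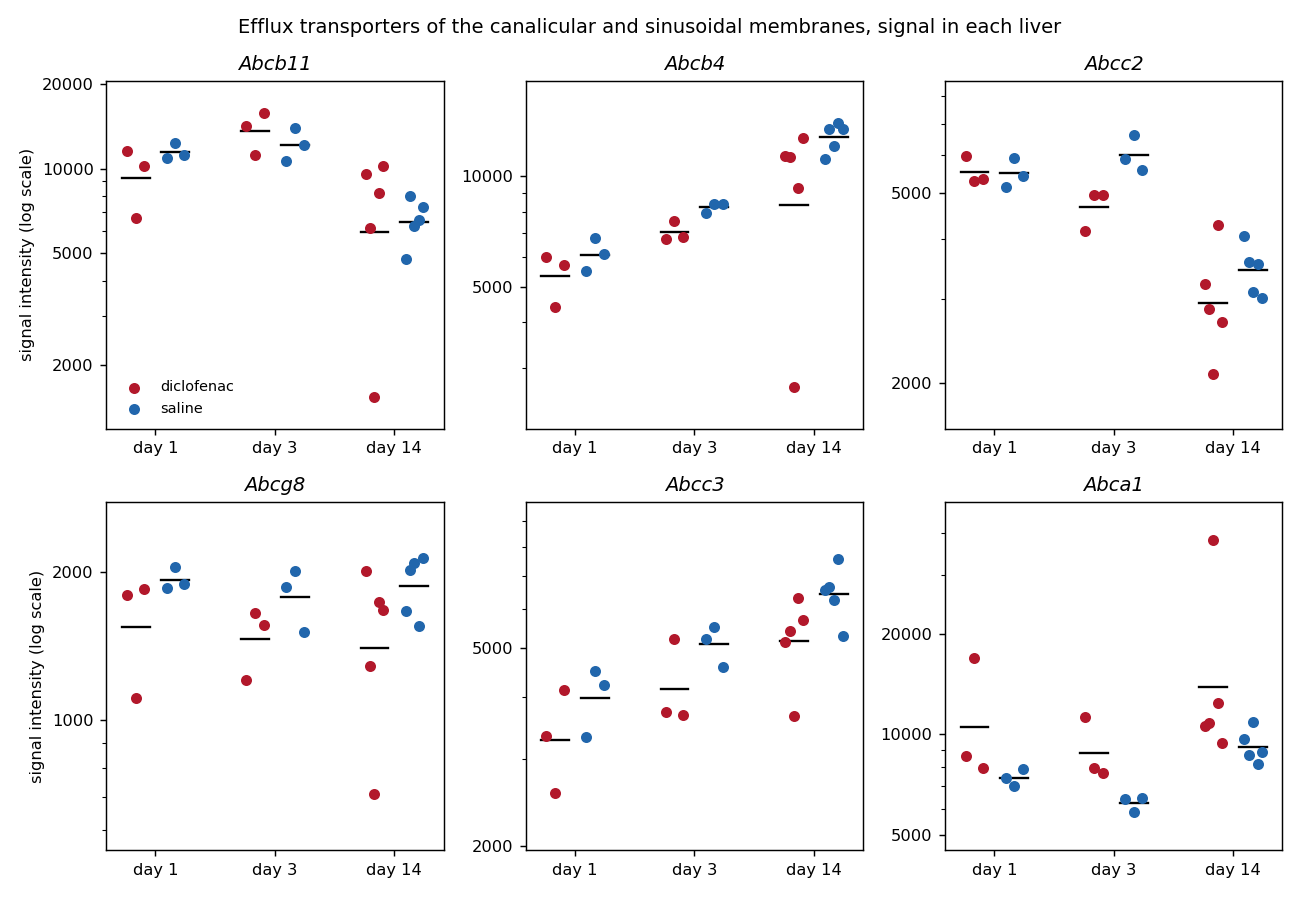
Signal intensity (log scale) of 4 canalicular pumps (Abcb11, Abcb4, Abcc2, Abcg8) and 2 sinusoidal pumps (Abcc3, Abca1) in each diclofenac and saline liver. Points are livers and bars geometric means. The same day 14 diclofenac liver is the lowest for Abcb11 (1546) and Abcb4 (2662) and the highest for Abca1 (37986).

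**Figure D3:**
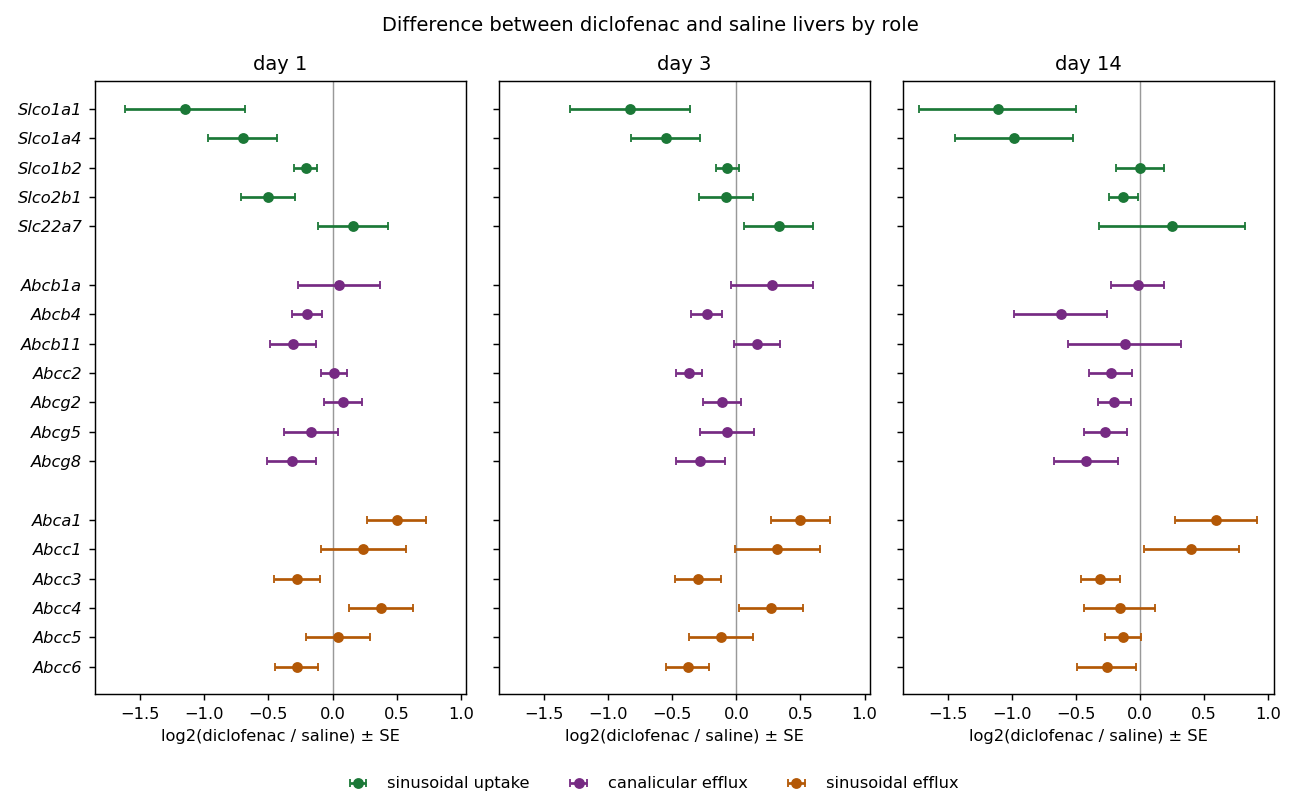
Log2 difference between diclofenac and saline livers with its standard error, for the members of the 3 roles that were tested at all of days 1, 3 and 14. Abcb1b, not tested at day 14, is left out of every panel, and its day 3 difference was 2.07. The lowest values shown are those of Slco1a1 (-1.15 at day 1) and Slco1a4 among the uptake carriers, and Abca1 (0.59 at day 14) is the highest shown.

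To set uptake against efflux, the mean log2 deviation of each list from the saline livers of the same day was taken in every liver, over the 5 uptake, 7 canalicular and 6 sinusoidal efflux genes tested at all days. No test was made of these list values. For uptake it was -0.43, -0.85 and -0.16 in the day 1 diclofenac livers, where the saline livers spread from -0.12 to 0.13. For canalicular efflux it was -0.05, -0.39 and 0.07 in diclofenac livers, against -0.09 to 0.08 in saline livers. For sinusoidal efflux it was 0.22, 0.02 and 0.06 in diclofenac livers, against -0.05 to 0.04 in saline livers. The uptake deviation minus the canalicular one was -0.38, -0.46 and -0.23 in the 3 day 1 diclofenac livers, against -0.09 to 0.12 in saline livers. This saline range comes from 3 livers set against their own mean. Single genes weigh on a mean of 5. Slco1a1 was 7610 in diclofenac replicate 3, against 11299 to 11782 in saline livers. Slco1a4 was 886 in diclofenac replicate 1, against 1544 to 2609 in saline livers.

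At day 3 the uptake deviation was -0.32, -0.39 and -0.00, with the saline livers at 0.00 after rounding, whereas the canalicular deviation was -0.23, -0.07 and 0.03 in diclofenac and -0.15 to 0.13 in saline livers. Uptake minus canalicular efflux was -0.09, -0.32 and -0.04 in diclofenac livers and overlapped the saline range of -0.13 to 0.15. At day 14 uptake was -0.12, 0.05, -1.98, 0.08 and 0.01 in diclofenac livers, against -0.26 to 0.23 in saline livers. Canalicular efflux was -0.01, -0.33, -1.03, 0.06 and -0.02 in diclofenac livers, against -0.07 to 0.06 in saline livers. In the replicate 3 liver both lists lay below saline while the sinusoidal efflux list was at 0.30, and 4 of 5 diclofenac livers lay within the saline range for uptake. Between the 2 membranes, canalicular and sinusoidal efflux differed most in that liver, and the other diclofenac livers of day 14 had sinusoidal values of -0.18 to 0.11, against -0.12 to 0.27 in saline livers.

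**Figure D4:**
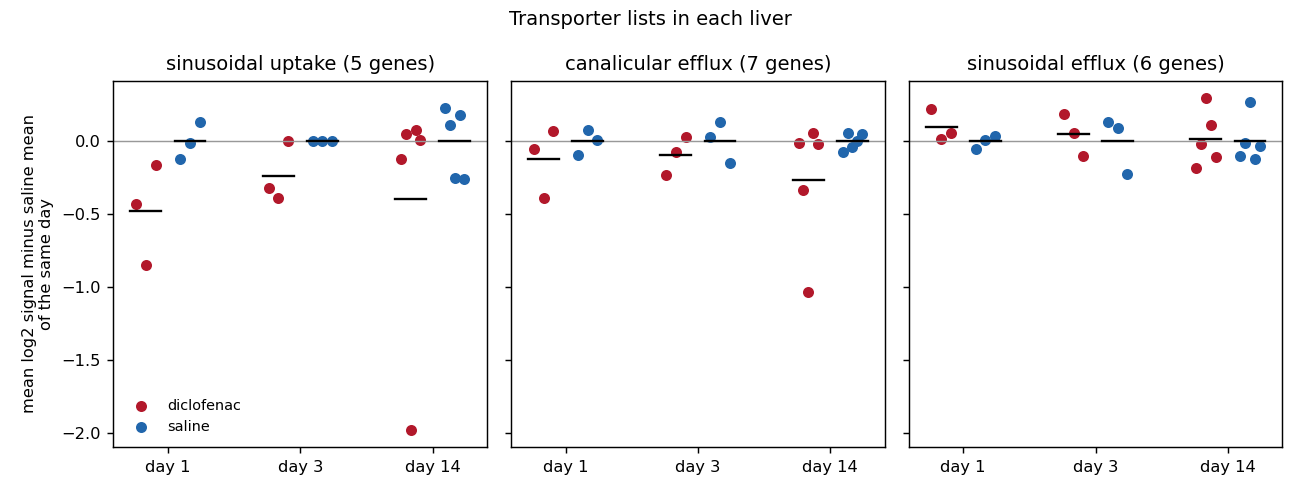
Mean log2 signal of each transporter list minus the saline mean of the same day, by liver, for uptake (5 genes), canalicular efflux (7 genes) and sinusoidal efflux (6 genes). Points are livers and bars means. The day 14 diclofenac liver at -1.98 for uptake is also the lowest for canalicular efflux (-1.03), and is at 0.30 for sinusoidal efflux.

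Outside these lists Slc22a5 had the smallest p of any member on a single day. It encodes Octn2, the sodium-coupled high-affinity carnitine carrier. Its signal at day 14 was 2667, 2049, 2147, 1628 and 2911 in diclofenac livers, against 3558, 4127, 3585, 3596 and 4131 in saline livers. All 5 diclofenac livers were below all 5 saline livers, replicate 3 lying among the others. The log2 difference was -0.76 (SE 0.15, unadjusted p = 0.000279, adjusted p = 0.106). The two-sided exact permutation p was 0.0079, the smallest that 5 against 5 livers can give. The gene was named because its livers did not overlap, and that separation alone fixes the exact p, so it adds no support. Without replicate 3 the log2 difference was -0.75 (adjusted p = 0.0374), in a fit that called 123 of 11742 genes. In 1 model of all 22 arrays, which draws on more livers for the spread, the difference of -0.76 passed (adjusted p = 0.00611). That model called 133 of 13340 genes at day 14.

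At day 1 Slc22a5 ran the other way: 1147, 1506 and 1113 in diclofenac livers, against 837, 892 and 953 in saline livers, again without overlap (log2 difference 0.48, SE 0.14, adjusted p = 0.267, and 0.34 without replicate 2). At day 3 it was 848, 1110 and 895 in diclofenac and 1152, 1182 and 1104 in saline livers (-0.28, SE 0.14). The day 14 difference minus the mean of the early ones was -0.86 (SE 0.18, unadjusted p = 8.29e-05, adjusted p = 0.123). A second probe set of the gene gave -0.86 at day 14, but -0.06 at day 1 and -0.02 at day 3, so the separation at day 1 was seen with 1 of 2 probe sets. Without diclofenac replicate 5 of day 14, the difference between the late and early effects was -0.96 (adjusted p = 0.0357).

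The bases before the Slc22a5 start, shown because its probe sets lay below saline together at day 14, held none of the 4 motifs.
Slc22a5, minus strand, chr11:53891797-53891953: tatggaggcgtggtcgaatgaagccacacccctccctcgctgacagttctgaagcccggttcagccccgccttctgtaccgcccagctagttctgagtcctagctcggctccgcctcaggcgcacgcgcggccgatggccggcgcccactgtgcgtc

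Abca8a and Slc22a30 were the other genes below saline without overlap on both early days. Abca8a, an ABCA family member, was 3876, 1425 and 4350 in day 1 diclofenac livers, against 5680, 5828 and 5606 in saline livers. At day 3 it was 2806, 3667 and 4726 in diclofenac and 6375, 6703 and 7030 in saline livers. The saline values lay close together, and the nearest diclofenac liver was well below them at both days. The log2 differences were -0.98 (SE 0.32, adjusted p = 0.304) and -0.88 (SE 0.32, adjusted p = 0.33), and the day 1 difference was -0.47 (adjusted p = 0.556) without replicate 2. At day 14 the gene was 1315, 1636, 287, 1448 and 1833 in diclofenac and 1067, 1368, 1835, 1001 and 1658 in saline livers, and its difference of -0.29 became 0.20 without replicate 3.

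Slc22a30, an Slc22a family member, was 5278, 1752 and 4659 in day 1 diclofenac livers, against 7379, 6264 and 6192 in saline livers. At day 3 it was 4606, 3951 and 5559 in diclofenac and 6442, 6934 and 7806 in saline livers. Its log2 differences were -0.91 (SE 0.31, adjusted p = 0.306) and -0.60 (SE 0.31, adjusted p = 0.508), and the day 1 difference was -0.41 (adjusted p = 0.558) without replicate 2. Without the day 1 replicate 2 liver, whose spread enters the shared estimate, the day 3 differences of Abca8a (-0.88, adjusted p = 0.00968) and Slc22a30 (-0.60, adjusted p = 0.0351) passed the test. Of all 12751 genes tested in that fit, 178 passed at day 3. Slc22a30 has close neighbours of similar sequence, and a probe set annotated to both it and Slc22a29 was left out.

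**Figure D5:**
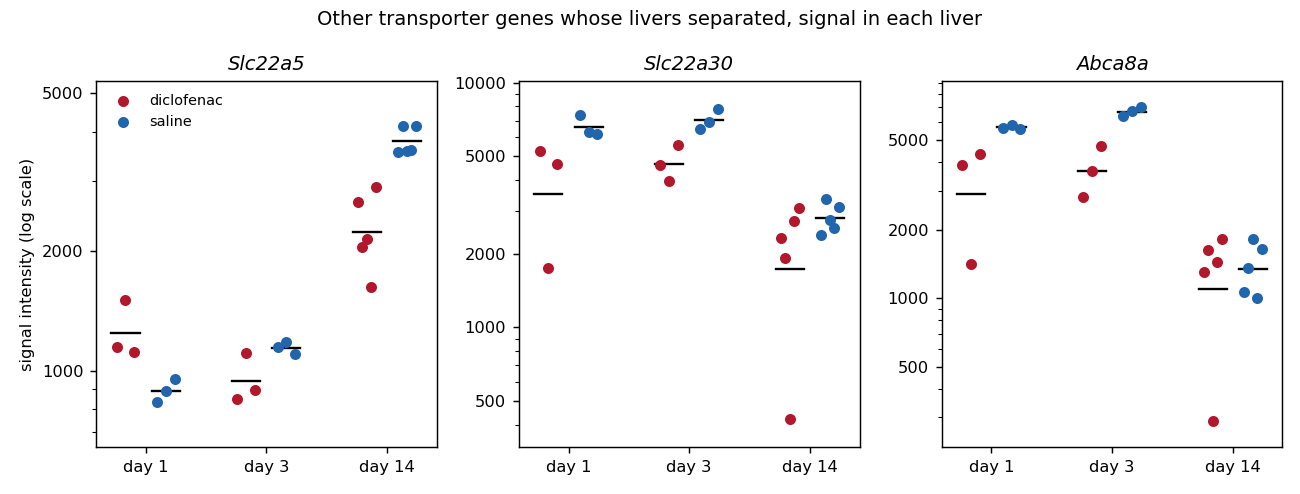
Signal intensity (log scale) of Slc22a5, Slc22a30 and Abca8a in each diclofenac and saline liver at days 1, 3 and 14. Points are livers and bars geometric means. Slc22a5 diclofenac livers lie above saline at day 1 and below it at day 14 (1628 to 2911, against 3558 to 4131).

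Abcd3, the peroxisomal importer of long-chain and branched acyl-CoAs, was 23477, 19346, 11600, 21132 and 23883 in day 14 diclofenac livers, against 28672, 25904, 25794, 32270 and 27242 in saline livers. The groups did not overlap, with a log2 difference of -0.53 (SE 0.18, adjusted p = 0.338), or -0.35 (adjusted p = 0.121) without replicate 3. Of the other genes named by the size of their differences, Slc22a15, Abcc10, Slc22a17 and Abcg3 had low signals. Slc22a15 was 165, 197 and 197 in day 1 diclofenac and 95, 134 and 104 in saline livers (log2 difference 0.76, SE 0.50). Abcc10, the drug pump Mrp7, was 28.6, 17.2 and 78.3 in day 1 diclofenac and 135, 90.2 and 156 in saline livers (-1.87, SE 0.84), and Slc22a17, a receptor for lipocalin 2, was 56.3, 24.6 and 65.5 in diclofenac and 126, 83.6 and 84.3 in saline livers (-1.10, SE 0.64, or -0.66 without diclofenac replicate 2). These signals lay around the array medians of 75.2 to 89.9. At day 3 Abcg3 was 126, 169 and 106 in diclofenac and 80.5, 96.6 and 98.9 in saline livers (0.51, SE 0.27, or 0.33 without diclofenac replicate 2). Abca3, the lipid transporter of lung surfactant, had higher signals, at 1944, 1929 and 1775 in day 3 diclofenac and 1462, 1770 and 1431 in saline livers (0.28, SE 0.15). Its other probe sets gave 0.08 (above the median on 21 arrays) and -0.06 (on 1 array) at day 3. The second probe sets gave -0.52 for Slc22a15 and 0.54 for Abcc10 at day 1, and -0.03 for Abcg3 at day 3. They were above the median on 5, 3 and 11 of 22 arrays.

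Of the mitochondrial, peroxisomal and lysosomal ABC proteins, 10 of 12 were measured and all were tested. Their median log2 difference was -0.13, -0.01 and -0.18 for days 1, 3 and 14, with 6, 5 and 7 genes below saline. The ABC proteins that lack a membrane domain (Abce1 and Abcf1 to Abcf3), which act in translation, had medians of 0.16, 0.06 and -0.08, and all 4 were above saline at day 1. Among the carnitine and organic cation carriers, 5 of 6 were measured and 3 tested, with Slc22a4, a carrier of ergothioneine, at 0.02, -0.15 and -0.13. No gene of these 3 lists passed the adjusted test at any day.

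Averaging over days narrowed the error. For the mean of days 1 and 3, 0 of 60 members passed, with 0.675% of all genes called, and 13 of 60 (2 higher, 11 lower) had an unadjusted p under 0.05, against 17.2% of all genes. This count was 7 without the day 3 diclofenac replicate 1 and 19 without the day 1 diclofenac replicate 3. Again no share of all genes is given for those fits. Abca8a was nearest to the threshold (log2 difference -0.93, SE 0.23, adjusted p = 0.0764), then Slc22a30 (-0.75, SE 0.22, adjusted p = 0.126) and Slco1a4 (-0.62, SE 0.19, adjusted p = 0.146). Without the day 1 replicate 2 liver, Abca8a was -0.67 (adjusted p = 0.00878) and Slc22a30 -0.50 (adjusted p = 0.0209). Without replicate 1 instead they were -1.04 (adjusted p = 0.0462) and -0.90 (adjusted p = 0.0464), and without replicate 3 Abca8a was -1.08 (adjusted p = 0.0289). The fits without replicates 2, 1 and 3 called 137 of 12751, 214 of 12763 and 326 of 12751 genes. For the mean of the 3 days, 0 of 60 passed with 1.68% of all genes called, and 13 of 60 (3 higher, 10 lower) had an unadjusted p under 0.05, against 18.5% of all genes. Slco1a1 averaged -1.03 (SE 0.37, adjusted p = 0.159), Slco1a4 -0.74 (SE 0.26, adjusted p = 0.149), Abca1 0.53 (SE 0.19, adjusted p = 0.16) and Slc22a23, a carrier without an established substrate, 0.20 (SE 0.06, adjusted p = 0.0952). Without the day 14 replicate 3 liver, 4 of 60 members passed, and the calls over all genes also rose, to 536 of 13277. The members were Slco1a1 at -0.80 (adjusted p = 0.0414), Abca1 at 0.41 (adjusted p = 0.0386), Slc22a30 at -0.56 (adjusted p = 0.0357) and Slc22a23 at 0.22 (adjusted p = 0.0311).

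With both livers that stood apart left out, a step chosen after the data were seen, 3 of 60 members passed for the mean of the 3 days. Of all 13185 genes tested, 365 passed. Slco1a1 was -0.56 (SE 0.14, adjusted p = 0.035), Slc22a30 -0.40 (SE 0.09, adjusted p = 0.0186) and Abca1 0.29 (SE 0.07, adjusted p = 0.0364). The differences were smaller than with all livers, and the standard errors shrank more. Slco1a4 was -0.60 (SE 0.18, adjusted p = 0.0832) and Abcb11 0.15 (adjusted p = 0.522).

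The effect of diclofenac was also compared between days. For day 3 minus day 1, 0 of 60 members passed, with 0% of all genes called, and 4 of 60 had an unadjusted p under 0.05, against 5.39% of all genes. For day 14 minus the early mean, 0 of 60 passed with 0.0225% of all genes called, and 3 of 60 (Slc22a5, Abcc10 and Abce1) had an unadjusted p under 0.05, against 6.45%.

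Saline livers themselves differed by day. Between day 3 and day 1, 0 of 60 members passed, with 0.217% of all genes called, and 7 of 60 had an unadjusted p under 0.05, against 10.4% of all genes. Abcb4 was nearest, at 8241 ± 258 at day 3 and 6135 ± 628 at day 1 (SD, n = 3 each), a log2 difference of 0.43 (SE 0.12, limma adjusted p = 0.189). The day 14 saline livers stood further off. Slc22a5 averaged 894 ± 58.1 at day 1, 1146 ± 39.4 at day 3 and 3800 ± 301 at day 14 in saline livers, and Slco1a4 2086 ± 533, 2984 ± 495 and 4967 ± 972 (SD, n = 3, 3 and 5). Abca8a averaged 5705 ± 113, 6703 ± 328 and 1386 ± 363, and Slc22a7 2146 ± 613, 2626 ± 405 and 498 ± 253. Time and any difference between sets of arrays cannot be told apart in these levels, and each treatment effect above is within a day.

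Among 9 other hepatobiliary transporters outside the families, 8 passed the filter on the early days and 7 on the last, and none passed the test on a single day. Slc10a2, the apical sodium-dependent bile salt carrier of cholangiocytes and ileum, passed for the mean of the 3 days (log2 difference 1.70, SE 0.39, adjusted p = 0.0271). Its log2 differences were 0.89 (SE 0.71), 2.29 (SE 0.71) and 1.90 (SE 0.52) for days 1, 3 and 14. No value without the livers that stood apart is given for this gene. Of 12 transport regulators 11 were tested and none passed. The pregnane X receptor gene Nr1i2, which drives several transporters, was -0.34 (SE 0.10, adjusted p = 0.0979) and the aryl hydrocarbon receptor gene Ahr 0.44 (SE 0.13, adjusted p = 0.0781) for the same mean. The cholangiocyte markers, 5 of 6 measured and 2 past the filter at day 14, summed to 341 to 2394 in day 14 diclofenac livers, the highest in replicate 3, and to 250 to 336 in saline livers, with Krt7 and Cftr below the median on every array of that day. The cholangiocyte sums overlapped at day 1, with 475 to 492 in diclofenac and 320 to 504 in saline livers. They also overlapped at day 3, with 371 to 540 in diclofenac and 211 to 411 in saline livers. The part of cholangiocytes in the Slc10a2 difference was not tested.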

How the data were processed

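Total RNA of 22 mouse livers was hybridised to Affymetrix Mouse 430 2.0 arrays, 1 per liver. The authors deposited MAS5 signal intensities on a linear scale, which share a trimmed mean on all arrays and hold no detection calls. Signals were set to log2, and the probe set with the highest mean log2 signal stood for each gene. A gene was tested when its signal exceeded the array's own median on at least 3 arrays of the model. Models were fitted with limma 3.58.1 in R 4.3.3 (eBayes with trend) over 12 arrays for days 1 and 3, 10 arrays for day 14 and all 22 arrays for comparisons across the 3 days. P-values were adjusted by Benjamini-Hochberg over all genes tested, at a threshold of 0.05. Single genes also received a two-sided exact permutation test over livers. The model steps were tested on simulated data.

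Members and lists were chosen with earlier results of these data known. Named members were those of the 3 membrane lists, any past the test, and for each day the 3 with the largest higher and the 3 with the largest lower difference among members whose livers did not overlap. Gene names came from the platform annotation, and all 81 symbols matched RefSeq. Promoter windows were RefSeq's, build GRCm38.p6. Nothing in the labels pairs the livers: of 11 pairs of the same replicate number, 1 had deviations that correlated above 0.1. Alternatives covered the filter, quantile normalization, median centring, an added constant, the choice of probe set, the arrays in the model, array weights, the replicate block, the t-test with a fold threshold that the methods state, and leaving out each liver. The number of arrays limits the precision.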

Additional observations from a re-analysis of the deposited data

Results flagged for a closer look

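At day 14, 5 of 56 groups of 5 livers among the named members held a value far outside the other 4, and each time this was the diclofenac replicate 3 liver; chance gives about 1 such group in 20, and the 56 groups share livers. Its signal was 3282 for Slco2b1 and 439 for Abcc6, the lowest of the diclofenac group, and 37986 for Abca1, 193 for Abcc1 and 233 for Abcc4, the highest. The probe set used for Slc22a5 differed in direction between days, with log2 differences of 0.48 at day 1 and -0.76 at day 14 and no overlap of diclofenac and saline livers at either. The gene's other probe set gave -0.06 at day 1 and -0.86 at day 14. For the probe set used, the test of the day 14 effect against the mean of the early ones gave -0.86 (limma adjusted p = 0.123), and the difference between day 1 and day 14 alone was not tested.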

How the results depend on the processing

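Most counts of members past the test stayed at 0 under the alternatives. The exceptions by setting follow, as counts of members called. With the t-test of the methods, unadjusted and with a 1.5-fold difference, there were 1 at day 1 (Slc22a15), 1 at day 3 (Slc22a30), 1 at day 14 (Slc22a5) and 2 between saline days 3 and 1, and none after adjustment. Over all genes it called 188 and 321 of 12884 at days 1 and 3, 284 of 11884 at day 14 and 278 of 12884 between saline days. With an unadjusted p under 0.01 and 1.5-fold there were 1 at day 1 (Abca8a), 1 at day 14 (Slc22a5), 3 for the mean of days 1 and 3 (Abca8a, Slc22a30 and Slco1a4), and 1 (Slc22a5) for either difference between days. All genes called in these were 248 of 12884, 205 of 11884 and 299 of 12884. For day 3 minus day 1 they were 96 of 12884, and for day 14 minus the early days 117 of 13340. With array weights there were 1 at day 14 (Slc22a5), 1 for the mean of days 1 and 3 (Abca8a), 1 between saline days (Abcb4), 3 for the mean of the 3 days (Slc22a23, Slc22a30 and Slco1a1) and 1 for day 14 minus the early days (Slc22a5). In the same order, all genes called were 109 of 11884, 190 of 12884, 224 of 12884, 484 of 13340 and 14 of 13340. Fitting each day on its own arrays gave 1 at day 3 (Abca8a), all 22 arrays in 1 model gave 1 at day 14 (Slc22a5), the mean of all probe sets gave 1 for the mean of days 1 and 3 (Slco1b2), and every probe set gave 1 between saline days (Slco1b2). In the same order, all those called were 145 of 11869 genes, 133 of 13340 genes, 63 of 11306 genes and 103 of 22168 probe sets. Leaving out both livers that stand apart, chosen after the data were seen, gave 3 for the mean of the 3 days, where 365 of 13185 genes were called.

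Leaving out 1 liver at a time, the counts ranged from 0 to 2 at day 3 (2 without diclofenac day 1 replicate 2, Abca8a and Slc22a30), 0 to 1 at day 14 (1 without diclofenac replicate 3, Slc22a5), 0 to 2 for the mean of days 1 and 3 (2 without diclofenac day 1 replicate 1 or 2, and 1 without replicate 3), 0 to 1 between saline days (Abcb4, without diclofenac day 1 replicate 2), 0 to 4 for the mean of the 3 days (4 without diclofenac day 14 replicate 3: Abca1, Slc22a23, Slc22a30 and Slco1a1) and 0 to 1 for day 14 minus the early days (Slc22a5, without diclofenac day 14 replicate 5). For the mean of the 3 days, 1 was called without diclofenac day 1 replicate 1 (Slc22a23) and 1 without replicate 3 (Slc22a13). Each of these fits also called more of all genes than the fit with every liver. The counts were 178 against 26 at day 3, 123 against 0 at day 14 and 120 against 28 between saline days. For the mean of days 1 and 3 they were 214, 137 and 326 without replicates 1, 2 and 3, against 87. For the mean of the 3 days they were 536, 340 and 296 in the order above, against 224. For day 14 minus the early days the count was 5, against 3. The replicate block, on numbers that did not pair the livers, called 0 members in every comparison and moved the count over all genes to 3 at day 3 and 56 for the mean of days 1 and 3, against 26 and 87.

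For the list medians, the mean of all probe sets gave -0.55 for uptake at day 3 and -0.30 for sinusoidal efflux at day 3, and every probe set gave 0.27 for sinusoidal efflux at day 3 and 0.04 for it at day 1. Leaving out 1 liver, the uptake median at day 1 ranged from -0.73 to -0.16 and the sinusoidal efflux median from -0.04 to 0.22.

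Of 111 log2 differences of named members, 29 changed sign under at least 1 alternative, all of them 0.50 or less in size. The mean of all probe sets turned Slco1b2 at day 14 (-0.08), Slco2b1 at day 1 (0.28), Abcc1 at day 3 (-0.86) and over 3 days (-0.06), and Abcd3 at day 1 (0.38). Array weights turned Slc22a7 at day 1 (-0.02) and, at day 14, Abcb1a (0.04), Abcb11 (0.25), Abca3 (-0.06) and Abca8a (0.14), and Abcb11 over 3 days (0.07). Quantile normalization turned Slco1b2 at day 14 (-0.01), and median centring Abcb1a (0.00). Both livers left out turned Abcb11 (0.15) and Abcc5 (0.02) over 3 days. Leaving out 1 liver, the ranges at day 1 were -0.05 to 0.37 for Slc22a7, -0.18 to 0.33 for Abcb1a, -1.14 to 0.04 for Abcb1b, -0.04 to 0.07 for Abcc2, -0.06 to 0.23 for Abcg2, -0.38 to 0.04 for Abcg5 and -0.20 to 0.28 for Abcc5. At day 3 they were -0.17 to 0.02 for Slco2b1, -0.03 to 0.54 for Abcb1a, -0.23 to 0.02 for Abcg2, -0.21 to 0.13 for Abcg5, -0.30 to 0.06 for Abcc5, -0.31 to 0.98 for Slc22a15, -0.75 to 0.57 for Abcc10 and -0.11 to 0.01 for Abcd3. At day 14 they were -0.07 to 0.19 for Slco1b2, -0.12 to 0.07 for Abcb1a, -0.31 to 0.37 for Abcb11, -0.36 to 0.02 for Abcc4, -0.24 to 0.13 for Abcg3, -0.06 to 0.11 for Abca3 and -0.47 to 0.20 for Abca8a. Over 3 days they were -0.16 to 0.84 for Abcb1b, -0.15 to 0.07 for Abcb11 and -0.15 to 0.01 for Abcc5. The cause of these reversals was not tested. With 3 livers a group and signals near the array median, differences of the size of those of Abcb1b or Abcc10 did not pass the test.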
